A study of Mus musculus with 5 samples.

Results

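The spliceosome and the SR and hnRNP proteins were examined in pro-B cells of mice in which the gene of the transcription factor MEF2C was deleted. The members were all deposited probe sets with exactly 1 gene symbol that begins with Srsf, Sfrs, Hnrnp, Snrp, Sf3a, Sf3b, Prpf or U2af. Where a symbol had several probe sets, the one with the highest mean log2 value over the 5 arrays was kept. This gave 58 genes of 17325 tested, namely 10 SR proteins, 17 hnRNP proteins, 9 Sm and U snRNP proteins, 11 proteins of SF3 and U2AF, and 11 PRPF proteins. Bone marrow of 9-month-old mice was sorted by FACS for pro-B cells, gated as B220+IgM-CD43+CD24+, and their RNA was hybridised to Affymetrix Mouse Genome 430 2.0 arrays. There were 2 arrays of Vav-Cre Mef2cfl/fl mice, called Mef2c-deficient here, in which the Vav promoter drives Cre throughout the haematopoietic system and not in B cells alone, and 3 arrays of control mice of the same age. The methods of the study give the controls as Mef2cfl/fl, Mef2cfl/+ or Vav-Cre Mef2cfl/+ mice, so that floxed alleles and in some cases Cre were on both sides, and the labels do not say which of these each control was.

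The spliceosome removes introns from nascent transcripts. Small nuclear ribonucleoproteins (snRNPs) built on a ring of Sm proteins recognise the splice sites, SF3a, SF3b and U2AF settle the branch point and the end of the intron, and the PRPF proteins join, activate and remodel the particle. SR proteins bind mainly exonic enhancers and recruit this machinery, whereas hnRNP proteins coat nascent RNA and often oppose them, and in lymphocytes both kinds of regulator take part in the alternative splicing of transcripts such as those of CD45 and the immunoglobulin heavy chain.

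Most of these genes had lower values in Mef2c-deficient than in control pro-B cells. In Mef2c-deficient pro-B cells 22 of the 58 members fell, 0 rose and 36 did not pass, a call needing a deposited fold of 2 or more together with an unadjusted limma p no higher than 0.05. Of all genes tested, 16.7% fell and 9.65% rose at the same thresholds. The log2 fold change was negative for 53 members and positive for 5, with a median of −1.25 over the members and 0.04 over all genes. Both Mef2c-deficient arrays lay below all 3 control arrays for 41 of the 58 members, a pattern that 28.4% of all genes had. That share is over genes of every level, whereas most members are abundant, and it was not computed for genes of like level. No member reached an adjusted p under 0.05 from limma (0 of 58 with Benjamini-Hochberg adjustment over 17325 genes), 26 had an unadjusted p under 0.05, and the unpaired test of the methods also gave 0 members after adjustment. An adjusted p under 0.10 from limma was reached by 14 members, all of them called lower and the lowest at 0.0895, and by 12% of all genes. Under other scalings the number of members lower was 5 after a further quantile normalisation, 5 after cyclic loess, 5 when arrays were centred on 9 housekeeping genes and 36 when they were centred on their medians. The 5 were Srsf1, Prpf39, Prpf4, Hnrnpdl and Sf3a1 after quantile normalisation and after cyclic loess, and Srsf1, Prpf39, Prpf4, Hnrnpdl and Sf3b5 with housekeeping centring. Of these, Prpf4, Hnrnpdl and Sf3a1 had deposited Mef2c-deficient values below the medians of their arrays. In bulk RNA, fewer cells that express a gene and less of its RNA per cell cannot be told apart.

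**Figure D1:**
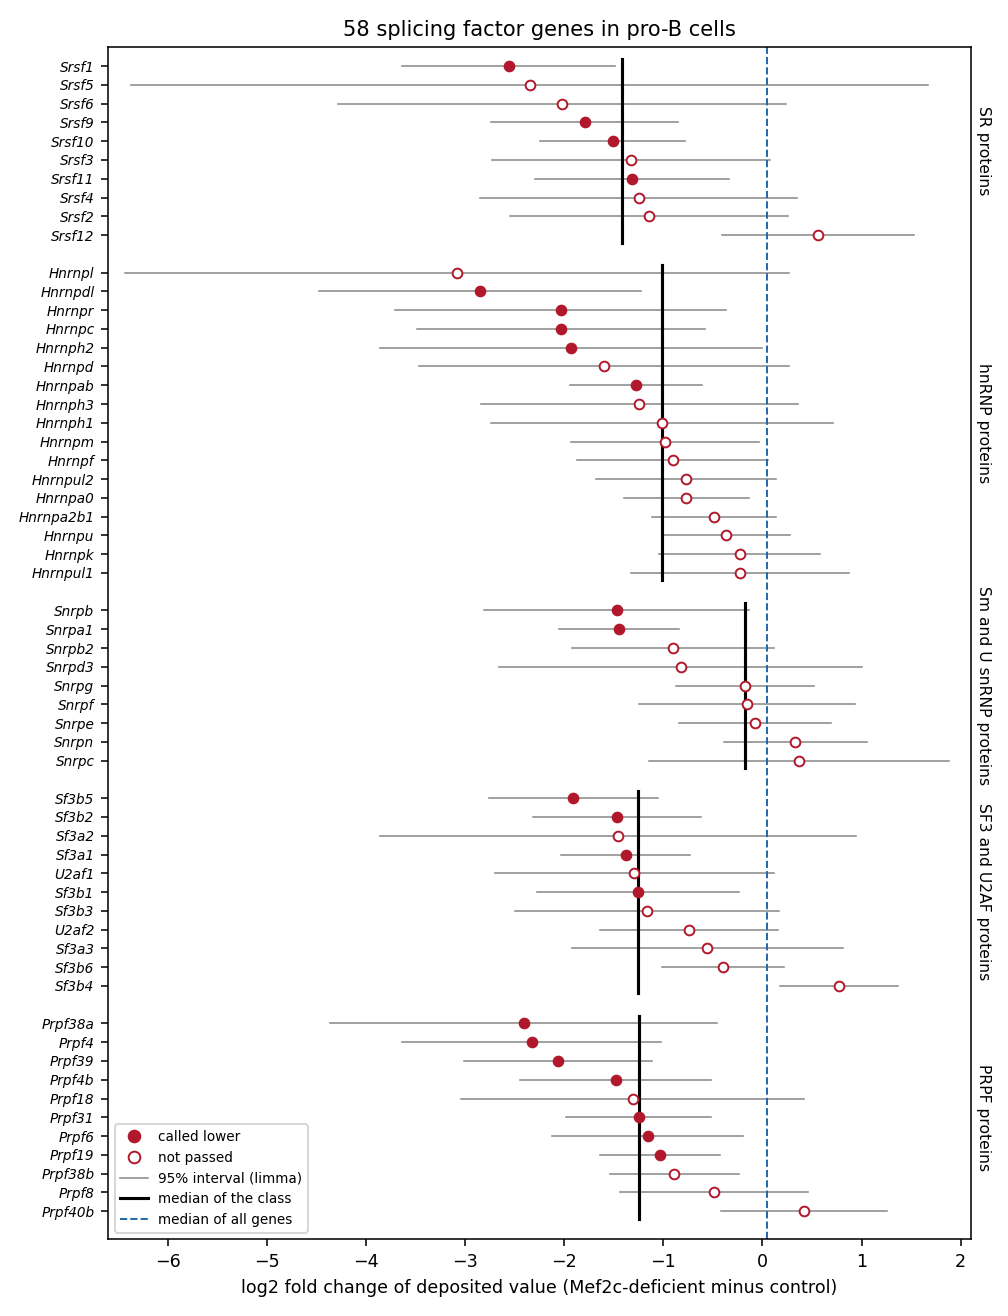
Log2 fold change of the deposited value, Mef2c-deficient minus control (horizontal axis), of all 58 members grouped by class, with the 95% interval of limma. Filled points are the 22 members called lower, black lines are class medians and the dashed line is the median of all genes (0.04). The class medians lie between −1.42 for SR proteins and −0.17 for Sm and U snRNP proteins.

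The deposited intensities stood on a linear scale whose base appears to be e in place of 2, applied to the log2 signal of robust multiarray averaging. They reach about 2322550, and each array has between 314 and 430 values over 65535, the most that a 16-bit scanner records. A fold of 2 in deposited values would then be 1.62-fold in signal, and at a fold of 2 in signal 15 members fell. The deposited arrays did not share 1 distribution, although quantile normalisation is named in the methods. Upper quartiles over all probe sets were 1074 and 973 on the Mef2c-deficient arrays, against 1488, 1475 and 1859 on the control arrays, and lower quartiles were 65.4 and 52.8 on the Mef2c-deficient arrays, against 42.0, 42.9 and 38.7 on the control arrays. Mef2c itself, the deleted gene, had a deposited intensity of 7379 and 6219 in Mef2c-deficient pro-B cells, against 14006, 20854 and 17219.7 in control, and its log2 fold change was −1.34 (standard error 0.29, adjusted p = 0.0918). It lay in the highest of 10 equal groups of genes by mean level. In that group the median log2 fold change was −0.91 and 32.8% of genes were called lower, so that Mef2c is a weak check of the labels. The position of its probe set against the floxed part of the gene is not stated in the sources used here. The bacterial hybridisation controls (15 probe sets), which the array protocol adds in fixed amount, had medians of 484247 and 139231 on the Mef2c-deficient arrays and of 85296, 121819 and 40971 on the control arrays. All 12 measured pro-B cell markers lay above the array median on every array (no value can be 0 on this scale), and their summed intensity was 699705 to 1249120 on the Mef2c-deficient and 950265 to 1573750 on the control arrays. Some T-cell transcripts stood out on Mef2c-deficient replicate 2, where Cd3e was at 13843, against 366 on Mef2c-deficient replicate 1 and 232 to 387 in control. The summed intensity of 14 measured T and NK cell markers overlapped, at 22856 to 54020 in Mef2c-deficient and 24702 to 45634 in control. Of the 14, Zap70 and Prf1 were lowest on Mef2c-deficient replicate 2, and 7 were highest there. Also highest on replicate 2 were 7 of 11 markers of plasmacytoid dendritic cells and 7 of 14 myeloid markers. Among them was Tlr7 at 2383, against 120 on replicate 1 and 113 to 221 in control. The summed intensity of both lists overlapped between the groups. The T and NK sum and the myeloid sum of replicate 2, 54020 and 5731530, were above every control. Without the brightest marker of each list, the sums of replicate 2 were above every control for T and NK, dendritic and myeloid markers. They were 39023 against 18981 to 27474, 173538 against 54319 to 153595, and 4007880 against 1348860 to 2817330. Replicate 1 was then at 12102, 124123 and 1221540. Of the 14 myeloid markers 13 lay above the array median on every array. Their summed intensity was 2506820 to 5731530 on the Mef2c-deficient and 2326920 to 4863160 on the control arrays, above that of the pro-B cell markers on every array. Of 8 erythroid markers 5 were highest on replicate 2, 6 had a positive log2 fold change (median 0.63) and Slc4a1 was called higher at 2.71, whereas Tfrc, the brightest and not particular to erythroid cells, was called lower at −1.28. Without Tfrc their summed intensity was 1633 and 5430 in Mef2c-deficient and 952 to 1108 in control. The part of these differences in the results below was not tested.

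Among the SR proteins, 4 of 10 measured genes fell and 6 did not pass, with a median log2 fold change of −1.42. This was 40% of the class, against 16.7% of all genes. In groups 8 to 10 by mean level, where most of the class lay, 35.9% of all genes fell. Srsf1, the founding member of the family, which binds purine-rich exonic enhancers, had a deposited intensity of 258 and 302 in Mef2c-deficient pro-B cells, against 1762, 1050.2 and 2398 in control. Both Mef2c-deficient arrays were far below the lowest control, the log2 fold change was −2.56 (standard error 0.42, adjusted p = 0.0895), and in signal Srsf1 was 3.42-fold lower. Srsf9, another SR protein of exonic enhancers, was at 8806 and 9305 in Mef2c-deficient pro-B cells, against 27870.0, 23840.5 and 46335 in control, with a log2 fold change of −1.79 (standard error 0.37, adjusted p = 0.0907). The Mef2c-deficient arrays nearly coincided and the controls spread over a wider range above them. Srsf10, which can act as a splicing repressor, was at 921 and 1296 in Mef2c-deficient pro-B cells, against 3174, 3457 and 2756 in control, with a log2 fold change of −1.51 (standard error 0.28, adjusted p = 0.0897). Srsf11, an SR-related protein that binds U2AF, was at 336 and 680.3 in Mef2c-deficient pro-B cells, against 1145, 1092 and 1344 in control, with a log2 fold change of −1.32 (standard error 0.38, adjusted p = 0.11). None of these 4 genes overlapped between the groups, but they were called on these same arrays. Both Mef2c-deficient arrays were below all controls for 28.4% of all genes. When either Mef2c-deficient array is left out, the other stands alone and is assumed to vary like the controls, which then supply all of the spread. The call of Srsf11 was lost on leaving out Mef2c-deficient replicate 1 (log2 fold change −0.81), control replicate 1 (−1.34) or control replicate 3 (−1.23).

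The remaining SR genes separated the Mef2c-deficient arrays from each other. Srsf2, an enhancer-binding SR protein mutated in human myelodysplasia and the SR member with the highest mean level, was at 74681 and 22884 in Mef2c-deficient pro-B cells, against 99461, 82939 and 92658 in control. Replicate 2 was well below every control and replicate 1 just below the lowest of them, and the log2 fold change of −1.15 (standard error 0.55, adjusted p = 0.205) did not pass, and it was −2.00 with replicate 2 alone, where it was called lower, and −0.29 with replicate 1 alone. Srsf5, named after its values were seen because its Mef2c-deficient arrays differed the most among all members (39.7-fold), was at 85770.4 and 2158 in Mef2c-deficient pro-B cells, against 96678, 64130.4 and 53610.5 in control. Only replicate 2 was below the controls, and the log2 fold change of −2.35 (standard error 1.57, adjusted p = 0.298) had the widest interval of the SR genes. Srsf6, Srsf3 and Srsf4 were also more than 2-fold lower on Mef2c-deficient replicate 2 than on replicate 1 and did not pass, with log2 fold changes of −2.02, −1.33 and −1.25. Srsf12, the SR gene nearest 0, was at 20.1 and 9.85 in Mef2c-deficient pro-B cells, against 10.1, 8.74 and 9.85 in control, among the dimmest genes of the array, and its groups overlapped. Its log2 fold change of 0.56 did not pass, and the value with replicate 1 alone, 1.07, which was called higher, rests on that 1 array at 20.1, below its array median. Over the 10 SR genes the median log2 difference from the control mean was −0.53 on Mef2c-deficient replicate 1 and −2.09 on replicate 2. Without replicate 1 the number of SR genes lower was 8, and without replicate 2 it was 4 with a median log2 fold change of −0.53. Replicate 2 is also the array on which 7 of 14 T and NK cell markers were highest. The same held for 7 of 11 dendritic, 7 of 14 myeloid and 5 of 8 erythroid markers. The part of this in the SR values was not tested. Of the 12 pro-B cell markers 6 were lower and 6 higher on replicate 2 than on replicate 1. Ebf1 was at 3026 on replicate 2, against 29295 on replicate 1, and Blnk at 2661, against 25010.0, whereas Dntt was at 35539 on replicate 2, against 3050.2 on replicate 1, and Ms4a1 at 26191, against 5706.

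Among the hnRNP proteins, 5 of 17 measured genes fell and 12 did not pass, with a median log2 fold change of −1.01, and all 17 fold changes were negative. This was 29.4% of the class, against 16.7% of all genes. In groups 8 to 10 by mean level, where most of the class lay, 35.9% of all genes fell and their median was −1.01. Hnrnpdl, a relative of Hnrnpd that binds AU-rich RNA, was at 41.7 and 38.9 in Mef2c-deficient pro-B cells, against 222, 169 and 647 in control. The Mef2c-deficient arrays coincided at an intensity below their array medians, and the log2 fold change was −2.84 (standard error 0.63, adjusted p = 0.0938). Hnrnpr was at 10249 and 2982 in Mef2c-deficient pro-B cells, against 22083, 15399 and 34035 in control, with a log2 fold change of −2.03 (standard error 0.65, adjusted p = 0.122). Hnrnpc, which coats nascent transcripts at uridine tracts, was at 2133 and 747 in Mef2c-deficient pro-B cells, against 5653, 3553 and 6834 in control, with a log2 fold change of −2.03 (standard error 0.57, adjusted p = 0.107). In both genes replicate 2 was the lower of the Mef2c-deficient arrays and replicate 1 was still below every control. Hnrnph2, which binds runs of guanosine, was at 16254 and 2911 in Mef2c-deficient pro-B cells, against 24269, 26553 and 28069.9 in control, with a log2 fold change of −1.93 (standard error 0.75, adjusted p = 0.155), the closest of the calls to the p threshold. Hnrnpab was at 2423 and 1929 in Mef2c-deficient pro-B cells, against 4649.8, 5499 and 5597 in control, with a log2 fold change of −1.27 (standard error 0.26, adjusted p = 0.0907), and both its groups were tight.

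Other hnRNP genes of high level stayed nearer to 0. Hnrnpu, which binds RNA and chromatin and had the highest mean level of the class, was at 139392 and 158234 in Mef2c-deficient pro-B cells, against 208375, 167749 and 202584 in control. Its groups did not overlap, yet the log2 fold change was −0.37 (standard error 0.25, adjusted p = 0.304) and did not pass. Hnrnpul1, the hnRNP gene nearest 0, was at 77659.9 and 80689.7 in Mef2c-deficient pro-B cells, against 77659.9, 66679 and 151925 in control, so that its groups overlapped. Hnrnpm and Hnrnpa0 met the p threshold and missed only the fold, at log2 fold changes of −0.98 and −0.77. Hnrnpl, which silences exons of the CD45 transcript in human T cells and is named after its values were seen, had the lowest log2 fold change of all members, −3.08 (standard error 1.30, adjusted p = 0.173), but did not pass. It was at 743 and 34.4 in Mef2c-deficient pro-B cells, against 1425, 1551 and 1124 in control, and the Mef2c-deficient arrays differed 21.6-fold. The call of Hnrnpdl was lost without either Mef2c-deficient array (−2.89 without replicate 1 and −2.79 without replicate 2), those of Hnrnpr and Hnrnpc without Mef2c-deficient replicate 2 (−1.14 and −1.27), control replicate 1 (−2.05 and −1.97) or control replicate 3 (−1.74 and −1.83), and that of Hnrnph2 without any of these 3 (−0.69, −1.99 and −1.88) or control replicate 2 (−1.92). Hnrnpab kept its call each time, and 1 of the 17 fell without Mef2c-deficient replicate 2, against 8 without replicate 1.

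**Figure D2:**
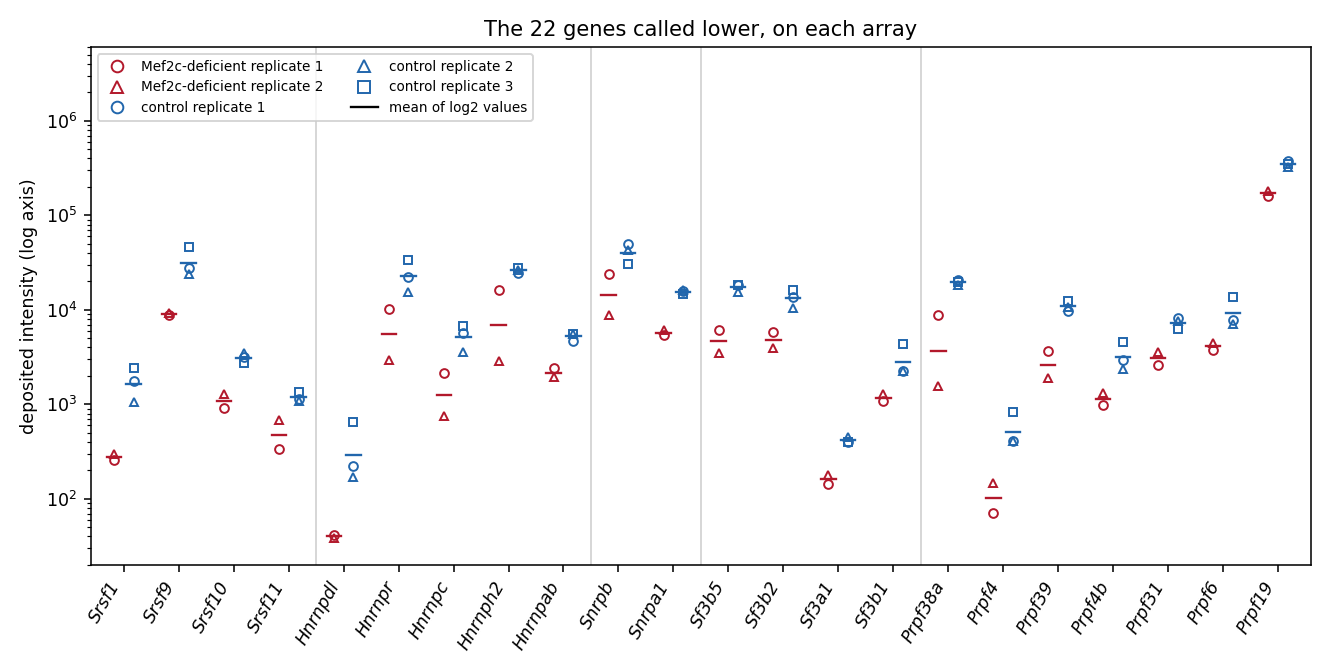
Deposited intensity (log axis) of the 22 members called lower, with Mef2c-deficient arrays in red to the left of control arrays in blue and horizontal bars at the mean of the log2 values. For every gene shown both Mef2c-deficient arrays lie below all 3 control arrays, as they do for 28.4% of all genes. The genes were called on these same arrays, so this separation is no further support. The Mef2c-deficient arrays lie far apart for Prpf38a, Hnrnph2, Hnrnpr, Hnrnpc and Snrpb.

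Among the Sm and U snRNP proteins, 2 of 9 measured genes fell and 7 did not pass, with a median log2 fold change of −0.17 that became 0.64 with each array centred on housekeeping genes. The share lower was 22.2%, against 16.7% of all genes and 35.9% of all genes in groups 8 to 10, where most of the class lay. Snrpa1, the protein A′ of the U2 snRNP, was at 5382 and 6085 in Mef2c-deficient pro-B cells, against 15921, 16375 and 14624 in control. Both groups were tight and clearly apart, and the log2 fold change was −1.45 (standard error 0.24, adjusted p = 0.0895). Snrpb, which encodes the B and B′ proteins of the Sm ring, was at 24076 and 8736 in Mef2c-deficient pro-B cells, against 49311, 43394 and 30323 in control, with a log2 fold change of −1.47 (standard error 0.52, adjusted p = 0.138). The other Sm ring genes that were tested did not pass. Snrpd1 and Snrpd2 were not tested, because their probe sets carry several symbols, and Snrpd3 was dim, below the array median on 3 arrays. Snrpg, the member with the highest mean level in the class, was at 619957 and 563019 in Mef2c-deficient pro-B cells, against 743332, 730573 and 546116 in control. Snrpe, whose log2 fold change of −0.08 was the nearest to 0 of all members, was at 204377 and 146384 in Mef2c-deficient pro-B cells, against 180671, 216392 and 155751 in control. Both genes overlapped between the groups, as did Snrpf (−0.16) and Snrpd3 (−0.82). The 95% interval of the log2 fold change ran from −0.87 to 0.52 for Snrpg and from −0.84 to 0.69 for Snrpe, so that a fall by a fold of 2 lay outside both. The class median relative to the control mean was −0.39 on Mef2c-deficient replicate 1 and −0.32 on replicate 2. The call of Snrpb was lost without Mef2c-deficient replicate 2 (−0.74), control replicate 1 (−1.32), control replicate 2 (−1.41) or control replicate 3 (−1.67), and that of Snrpa1 was kept each time.

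SF3a and SF3b are the parts of the U2 snRNP that hold the branch point, and the U2AF heterodimer reads the end of the intron before them. Of 11 measured genes 4 fell and 7 did not pass, with a median log2 fold change of −1.26. The share lower was 36.4%, against 16.7% of all genes and 35.9% of all genes in groups 8 to 10, where most of the class lay. Sf3b5, a small subunit of SF3b, was at 6099.6 and 3523 in Mef2c-deficient pro-B cells, against 18401, 15510.0 and 18404 in control, with a log2 fold change of −1.91 (standard error 0.33, adjusted p = 0.0895). Sf3b2, a subunit that contacts the RNA near the branch point, was at 5782 and 3969 in Mef2c-deficient pro-B cells, against 13798, 10422 and 16088 in control, with a log2 fold change of −1.47 (standard error 0.33, adjusted p = 0.0938). Sf3a1, a subunit of SF3a, was at 143 and 180.1 in Mef2c-deficient pro-B cells, against 399.8, 455 and 399.8 in control, with a log2 fold change of −1.38 (standard error 0.25, adjusted p = 0.0897), and the Mef2c-deficient arrays were below their array medians. Sf3b1, the subunit that clamps the branch point and is mutated in human myelodysplasia and chronic lymphocytic leukaemia, was at 1075 and 1287 in Mef2c-deficient pro-B cells, against 2249, 2249 and 4379 in control, with a log2 fold change of −1.26 (standard error 0.40, adjusted p = 0.121). None of these 4 genes overlapped between the groups, but they too were called on these same arrays, and 28.4% of all genes had this pattern. Sf3a3, the member with the highest mean level in the class, was at 22926 and 70657 in Mef2c-deficient pro-B cells, against 58027, 52059 and 68623 in control, where replicate 2 exceeded every control. Its log2 fold change of −0.56 did not pass, and it was −1.37 with replicate 1 alone, where it was called lower, and 0.26 with replicate 2 alone. Sf3b6, the subunit next to the branch point adenosine and the nearest to 0 in the class, was at 45 and 42.4 in Mef2c-deficient pro-B cells, against 61.4, 60.1 and 52 in control, low intensities in which the groups did not overlap, and its log2 fold change of −0.40 did not pass. U2af1 and U2af2, the subunits of U2AF, had log2 fold changes of −1.29 and −0.74, and neither passed. Sf3b4 was the only member with both Mef2c-deficient arrays above all controls, a pattern that 4479 of the 17325 genes tested had. Its log2 fold change was 0.77 (standard error 0.23, adjusted p = 0.114), and it missed the fold alone. Sf3b4 was dim, below the array median on 4 arrays. It lay in group 4 by mean level, where the median was already 0.52. The class median relative to the control mean was −1.37 on Mef2c-deficient replicate 1 and −1.13 on replicate 2. The call of Sf3b1 was lost without Mef2c-deficient replicate 1 (−1.13), without replicate 2 (−1.39) and without control replicate 3 (−0.94), and the other 3 calls were kept each time.

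Among the PRPF proteins, 7 of 11 measured genes fell and 4 did not pass, with a median log2 fold change of −1.25. The share lower was 63.6%, against 16.7% of all genes and 35.9% of all genes in groups 8 to 10, where most of the class lay. Prpf38a, which enters the spliceosome before its activation, was at 8840.3 and 1546 in Mef2c-deficient pro-B cells, against 20869, 18324 and 19722 in control. The controls were tight and replicate 2 was 5.72-fold below replicate 1, and the log2 fold change was −2.41 (standard error 0.76, adjusted p = 0.12). Prpf4, a protein of the U4/U6 snRNP, was at 71.3 and 148 in Mef2c-deficient pro-B cells, against 407, 407 and 828 in control, with a log2 fold change of −2.33 (standard error 0.51, adjusted p = 0.0926). Its Mef2c-deficient values were below their array medians. Prpf39, a partner of the U1 snRNP, was at 3649 and 1880.2 in Mef2c-deficient pro-B cells, against 9819.7, 10736 and 12379 in control. Both Mef2c-deficient arrays were far below the lowest control, the log2 fold change was −2.06 (standard error 0.37, adjusted p = 0.0895), and in signal it was 2.69-fold lower. Prpf4b, a kinase of the U4/U6.U5 tri-snRNP, was at 997 and 1318 in Mef2c-deficient pro-B cells, against 2969, 2390.3 and 4619 in control, with a log2 fold change of −1.48 (standard error 0.38, adjusted p = 0.0986). Prpf31, a U4/U6 protein mutated in human retinitis pigmentosa, was at 2635 and 3589.8 in Mef2c-deficient pro-B cells, against 8223, 7567 and 6268 in control, with a log2 fold change of −1.25 (standard error 0.28, adjusted p = 0.0938). Prpf6, which bridges the parts of the tri-snRNP, was at 3781 and 4456 in Mef2c-deficient pro-B cells, against 7902, 7127 and 13666 in control, with a log2 fold change of −1.16 (standard error 0.37, adjusted p = 0.123). Prpf19, the ubiquitin ligase that gives its name to the complex that activates the spliceosome, had the highest mean level of the class, at 161575 and 181985 in Mef2c-deficient pro-B cells, against 372516, 328772 and 351487 in control, with a log2 fold change of −1.03 (standard error 0.24, adjusted p = 0.0938). For Prpf4b, Prpf31, Prpf6 and Prpf19 the Mef2c-deficient arrays were close to each other and below all controls.

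Prpf8, the large protein at the catalytic centre, had a log2 fold change of −0.49 and did not pass, and Prpf38b, at −0.89, missed only the fold. Prpf40b, the PRPF gene nearest 0, was at 1401 and 1027 in Mef2c-deficient pro-B cells, against 1027, 681 and 1027 in control, with the same value on 3 arrays. The class median relative to the control mean was −1.15 on Mef2c-deficient replicate 1 and −1.04 on replicate 2. Without Mef2c-deficient replicate 1 the calls of Prpf4 (−1.80), Prpf4b (−1.28), Prpf6 (−1.04) and Prpf19 (−0.95) were lost, and without replicate 2 that of Prpf6 (−1.28). Calls were also lost for Prpf38a and Prpf6 without control replicate 1 (−2.36 and −1.27) or control replicate 3 (−2.40 and −0.87), for Prpf38a without control replicate 2 (−2.46) and for Prpf19 without control replicate 1 (−0.99), and those of Prpf39 and Prpf31 were kept each time.

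**Figure D3:**
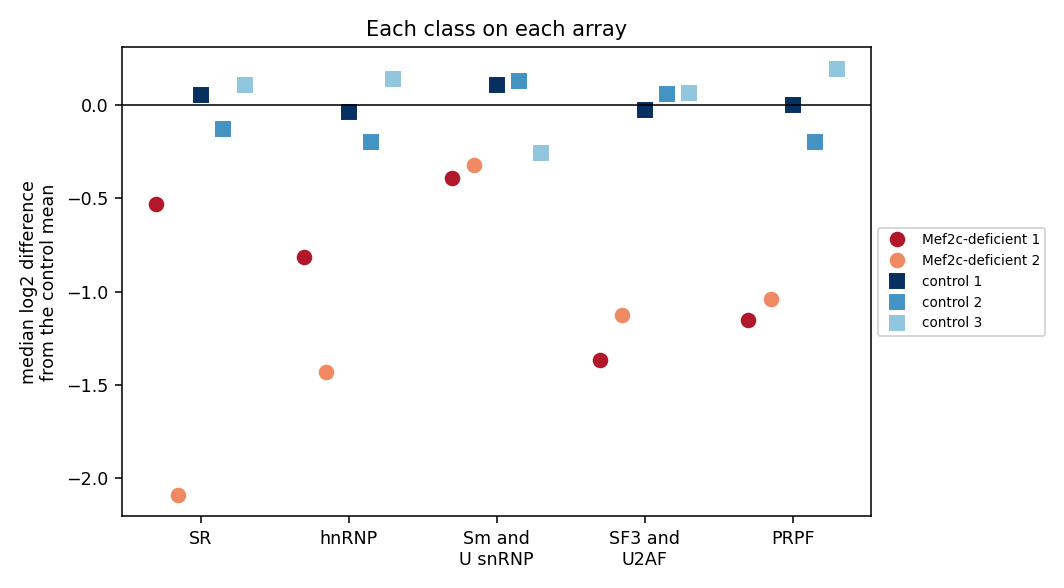
Median log2 difference from the mean of the control arrays (vertical axis) over the members of each class, on each Mef2c-deficient array (circles, to the left) and each control array (squares). The Mef2c-deficient arrays are close for the Sm and U snRNP (−0.39 and −0.32), SF3 and U2AF (−1.37 and −1.13) and PRPF (−1.15 and −1.04) classes, and apart for SR proteins (−0.53 and −2.09) and hnRNP proteins (−0.81 and −1.43).

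Over all members the median difference from the control mean was −0.83 on Mef2c-deficient replicate 1 and −1.27 on replicate 2. The Mef2c-deficient arrays differed by more than 2-fold for 24 of 58 members, of which 18 were lower on replicate 2 and 6 lower on replicate 1, whereas the highest and lowest control differed by more than 2-fold for 8. Only replicate 2 was below all controls for Srsf5, Hnrnph1, Snrpe, Snrpc and Prpf18, and only replicate 1 for Hnrnpk, Snrpd3, Sf3a2, Sf3a3 and Prpf8. Leaving out 1 array at a time gave between 14 and 28 members lower (28 without Mef2c-deficient replicate 1, 19 without replicate 2, and 14, 19 and 14 without control replicates 1, 2 and 3). Of the 22 calls, 10 were kept in all 5 of these fits. They were Srsf1, Srsf9 and Srsf10, Hnrnpab, Snrpa1, Sf3b5, Sf3b2 and Sf3a1, and Prpf39 and Prpf31. Srsf1 and Prpf39 were the only calls kept in every alternative fit, the other scalings of the arrays included. Without Mef2c-deficient replicate 1, 15 members reached an adjusted p under 0.05 from limma, and without replicate 2 there were 9, both from a single Mef2c-deficient array, in fits that gave 1680 and 1894 of all 17325 genes.

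The splicing genes are mostly abundant transcripts, and abundant transcripts were lower in general. With all genes divided into 10 equal groups by mean level, 33 of the 58 members lay in the highest group and 43 in groups 8 to 10. Of these 43, 17 fell (39.5%), against 35.9% of all genes in the same groups, and their median log2 fold change was −1.25, against −1.01. The share of abundant members called lower was thus near the background for abundant genes. Of the other 15 members, in groups 1 to 7, 5 fell (33.3%), against 8.49% of all genes there and 11.9% when those genes were weighted by the groups in which the members lie, and the median was −1.16, against 0.44. With the same weighting the background was 33.9% for the abundant members and 28.2% for all 58, of which 37.9% fell. A weighted background was not computed for the single classes. The 5 of lower level that fell were Srsf1, Srsf11, Hnrnpdl, Sf3a1 and Prpf4. The log2 fold change was below the median of the member's own level group for 28 of the 43 abundant members and for 13 of the 15 others. Of 9 measured housekeeping genes 5 fell, with a median log2 fold change of −1.03.

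**Figure D4:**
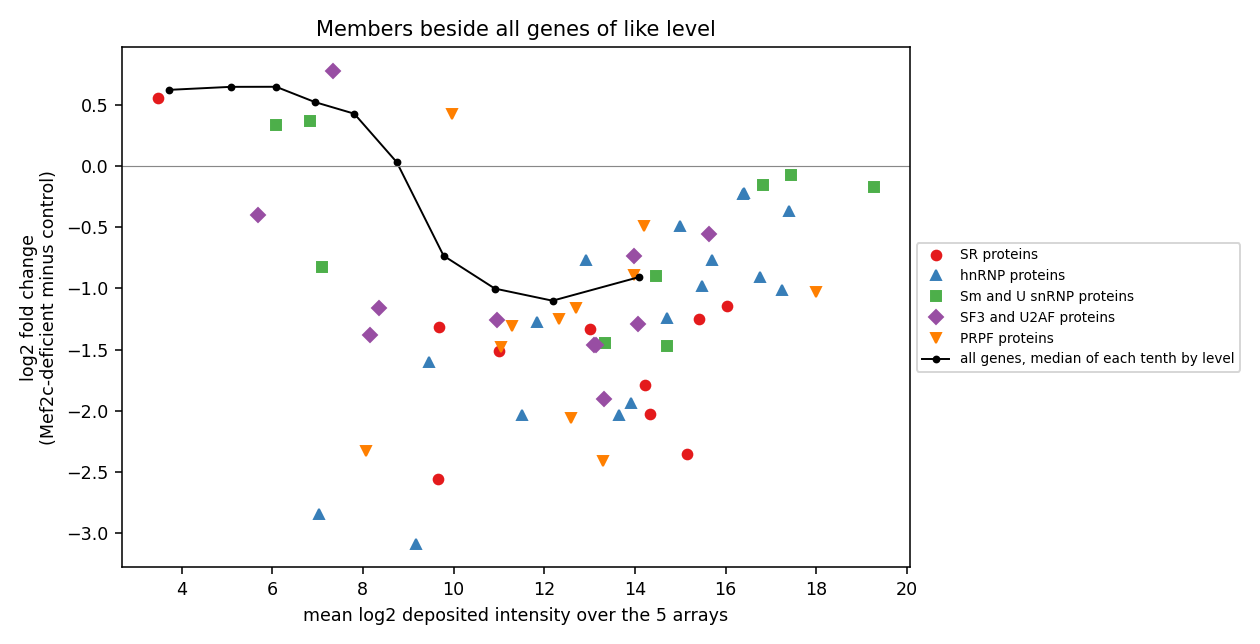
Log2 fold change, Mef2c-deficient minus control (vertical axis), against the mean log2 deposited intensity over the 5 arrays (horizontal axis) for the 58 members, coloured by class. The black line joins the medians of all genes in each of 10 groups by mean level, which are 0.62 in group 1, −1.10 in group 9 and −0.91 in group 10. Members of high level lie on both sides of this line, and most members of lower level lie beneath it.

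Other genes of the splicing pathway were also mostly lower. Their lists were chosen by role, but with earlier results of these data known. The shares beside the background below are therefore a description and no independent support. Of 46 measured spliceosome proteins outside the naming rule, 21 fell, 1 rose and 24 did not pass, with a median log2 fold change of −1.24. This was 45.7% of the list, against 34.3% of all genes weighted to the same levels, and the number lower was 3, 2 and 2 after quantile normalisation, cyclic loess and housekeeping centring and 32 with centring on medians. Eftud2, the GTPase of the U5 snRNP, was at 4378 and 4916 in Mef2c-deficient pro-B cells, against 21735, 22781 and 16652 in control, with a log2 fold change of −2.12 (standard error 0.27, adjusted p = 0.0895). Snrnp200, the helicase that unwinds U4 from U6, was at 27419.6 and 17418 in Mef2c-deficient pro-B cells, against 62250.2, 48690.5 and 72466 in control (−1.47), and Snrnp70, the U1 protein that contacts SR proteins, at 4666 and 1465 in Mef2c-deficient pro-B cells, against 11372, 5419 and 14406 in control (−1.88). Usp39 (−1.74) and Snrnp27 (−2.46) of the tri-snRNP, Cdc5l (−1.47), Bcas2 (−1.87) and Plrg1 (−1.11) of the Prpf19 complex, Phf5a of SF3b (−1.47) and Snrnp48 (−2.80) and Snrnp25 (−1.31) of the minor spliceosome also fell. Ddx39b, a helicase of spliceosome assembly and mRNA export, was the 1 that rose, at 347 and 215 in Mef2c-deficient pro-B cells, against 63.8, 118 and 104 in control, with a log2 fold change of 1.57 (standard error 0.40, adjusted p = 0.0996). Without Mef2c-deficient replicate 1 the list had 26 genes lower, without replicate 2 it had 11, and without control replicates 1, 2 and 3 it had 13, 15 and 14.

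Of 24 measured SR-related proteins and SR kinases, 11 fell and 13 did not pass, with a median log2 fold change of −1.25 and no positive value. The share was 45.8%, against 34.6% of all genes at the same levels, and under the same 4 scalings 2, 1, 2 and 21 fell. Srrm1 and Srrm2 are scaffold proteins of nuclear speckles. Srrm1 was at 8764 and 8822 in Mef2c-deficient pro-B cells, against 18716, 15363 and 23020.3 in control, with a log2 fold change of −1.09 (standard error 0.28, adjusted p = 0.0993), and Srrm2 was at 3397 and 2851 in Mef2c-deficient pro-B cells, against 6771, 6265 and 5772 in control, with −1.01 (standard error 0.25, adjusted p = 0.096). Luc7l (−2.15), a U1-associated protein, Acin1 (−1.56), Son (−1.49), Rbm25 (−1.73) and Rnps1 (−1.24) fell as well. The 7 kinases of the list did not pass, with log2 fold changes of −2.01 for Clk2, −1.45 for Dyrk1a, −1.33 for Srpk1, −1.30 for Clk3, −1.19 for Clk1, −0.83 for Clk4 and −0.59 for Srpk2. Leaving out 1 array at a time gave 18 without Mef2c-deficient replicate 1, 7 without replicate 2, and 9, 9 and 8 without control replicates 1, 2 and 3.

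Of 22 measured splicing regulators of other families, 13 fell, 1 rose and 8 did not pass, with a median log2 fold change of −1.21. The share was 59.1%, against 29.4% of all genes at the same levels, and 3, 4, 3 and 16 were lower under the 4 scalings. Tardbp (TDP-43), which represses cryptic exons, was at 4953 and 1109 in Mef2c-deficient pro-B cells, against 17984, 11987 and 25659 in control, with a log2 fold change of −2.92 (standard error 0.73, adjusted p = 0.0978). Ptbp2, a polypyrimidine tract-binding repressor, was at 970.3 and 350.0 in Mef2c-deficient pro-B cells, against 4029.8, 2532 and 4181 in control (−2.58), and Khdrbs1 (Sam68) at 22749 and 5641 in Mef2c-deficient pro-B cells, against 48153, 34287 and 30768 in control (−1.71). Celf1 (−1.29), Mbnl3 (−1.41), Syncrip (−2.01), Tia1 (−1.06) and Tial1 (−1.77) were among the others that fell. Rbfox2, which binds a short motif in introns, rose, at 193 and 146 in Mef2c-deficient pro-B cells, against 94.4, 106 and 57.4 in control, with a log2 fold change of 1.01 (standard error 0.37, adjusted p = 0.143). All its values were below their array medians, and the median log2 fold change of its level group, group 4, was 0.52. The number lower was 11 without Mef2c-deficient replicate 1, 7 without replicate 2, and 7, 6 and 7 without control replicates 1, 2 and 3.

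Of 17 measured genes of the minor spliceosome and of snRNP assembly, 9 fell and 8 did not pass, with a median log2 fold change of −1.07. The share was 52.9%, against 30.2% of all genes at the same levels, and 2, 2, 0 and 11 were lower under the 4 scalings. All 9 act in snRNP assembly, and the minor spliceosome proteins that fell, Snrnp48 and Snrnp25, stand in the spliceosome list above. They were Smn1 (−1.69), Gemin2 (−1.69), Gemin5 (−1.47) and Gemin7 (−1.04) of the SMN complex, which loads the Sm ring on snRNA, Strap (−1.57), which joins that complex, Prmt5 (−1.07), Wdr77 (−1.53) and Clns1a (−1.69), which methylate and hold Sm proteins before loading, and Tgs1 (−1.62), which hypermethylates the snRNA cap. Smn1 was at 1946 and 3354 in Mef2c-deficient pro-B cells, against 7719, 6683 and 10909 in control, Gemin5 at 1177 and 1588 in Mef2c-deficient pro-B cells, against 3914, 3611 and 3849 in control, and Tgs1 at 8806 and 9709.8 in Mef2c-deficient pro-B cells, against 30969, 24497 and 30035 in control. The groups were apart in each. Of the Sm ring genes that were tested, Snrpb alone passed. Leaving out 1 array at a time gave 8 to 11 genes of this list lower.

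Only Hnrnpu and Hnrnpr had further deposited probe sets with that symbol alone, and these went the same way. Hnrnpu had a second probe set, dimmer than the first, at 5906 and 6070.2 in Mef2c-deficient pro-B cells, against 15056, 9845 and 18993 in control, a log2 difference of −1.24 beside −0.37 for the one reported above. Hnrnpr had a second probe set near the array background, at 45.9 and 59.9 in Mef2c-deficient, against 57.9, 59.9 and 156 in control, a log2 difference of −0.64 beside −2.03. Probe sets with several gene symbols were left out by the rule, 9 in all, and most of them also carried the symbols of predicted genes. Their log2 differences were −0.65 and −0.66 for the 2 with Hnrnpa1, −0.34 and −1.34 for the 2 with Hnrnpa3, −0.64 for Snrpd1, −0.40 for Snrpd2, −0.33 for Snrpa and −1.35 for U2af1l4. The probe set of Snurf and Snrpn was the exception at 2.39, with low intensities of 52.7 and 72.1 in Mef2c-deficient, against 8.38, 15.6 and 12.5 in control, while the probe set of Snrpn alone had a log2 fold change of 0.33 and did not pass.

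Promoter sequences of RefSeq (GRCm38.p6), from 250 bases before to 50 after the start of a gene, were matched to 52 of the 58 members and 20 of the 22 that fell. The motif CCGGAAG, searched on both strands, which holds the GGAA core that ETS-family factors bind, was in 18 of 52 member promoters (34.6%), in 13.9% of the promoters of genes tested and in 9.14% of all promoters. It was in 6 of 20 that fell (30.0%) and in 12 of 32 that did not pass (37.5%). CACGTG was in 5 of 52 (9.62%), 9.07% of genes tested and 7.24% of all promoters, and TATAAA in 5 of 52 (9.62%), 9.97% of genes tested and 14.2% of all promoters. The MEF2 box, the AT-rich site of MEF2 factors, was in none of the 20 promoters of members that fell, in 2 of 32 of those that did not pass, in 1.36% of genes tested and in 1.91% of all promoters. A match describes the letters of this window only, and binding was not measured here.

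To show where CCGGAAG lies, the 120 bases before the start are printed for 2 members that fell, for Srsf5, which has it on both strands, and for Srsf1, which fell in every alternative and has none of these motifs. Capitals mark CCGGAAG or its reverse complement.
Sf3b2 (chr19:5295458-5295577, minus strand): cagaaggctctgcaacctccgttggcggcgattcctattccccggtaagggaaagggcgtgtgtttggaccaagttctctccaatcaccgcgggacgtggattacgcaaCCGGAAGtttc
Prpf19 (chr19:10895111-10895230, plus strand): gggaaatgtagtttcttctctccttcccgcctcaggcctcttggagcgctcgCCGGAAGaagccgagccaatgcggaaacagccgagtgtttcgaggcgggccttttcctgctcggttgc
Srsf5 (chr12:80945379-80945498, plus strand): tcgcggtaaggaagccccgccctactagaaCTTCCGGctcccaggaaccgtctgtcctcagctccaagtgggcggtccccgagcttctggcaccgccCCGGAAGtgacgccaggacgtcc
Srsf1 (chr11:88047253-88047372, plus strand): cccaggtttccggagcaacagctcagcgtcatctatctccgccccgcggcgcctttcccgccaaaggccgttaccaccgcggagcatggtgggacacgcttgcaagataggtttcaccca

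The members with a MEF2 box are shown because Mef2c is the deleted gene, with the box in capitals and up to 25 bases on either side.
Srsf3 (chr17:29032616-29032659, plus strand): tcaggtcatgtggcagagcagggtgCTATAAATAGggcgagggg
Sf3b3 (chr8:110846912-110846971, minus strand): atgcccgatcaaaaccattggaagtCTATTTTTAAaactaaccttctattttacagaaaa
In Srsf3 the box ran from 19 to 10 bases before the start and overlapped TATAAA, and in Sf3b3 it ran from 143 to 134 bases before the start and did not. Srsf3 was at 8548 and 2625 in Mef2c-deficient pro-B cells, against 11462, 11000.0 and 13374 in control, and Sf3b3 at 118 and 345 in Mef2c-deficient pro-B cells, against 409, 546 and 409 in control. Both had all Mef2c-deficient arrays below the controls, but neither passed, with log2 fold changes of −1.33 (standard error 0.55, adjusted p = 0.167) and −1.16 (standard error 0.52, adjusted p = 0.188).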

How the data were processed

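RNA of sorted pro-B cells was measured on 5 Affymetrix Mouse Genome 430 2.0 arrays, 2 Mef2c-deficient and 3 control, which the methods call independent samples. The authors deposited 1 intensity per probe set and array, which the methods give as background adjusted, quantile normalised and summarised by robust multiarray averaging. The software versions are not given in the sources used here. Of 23835 deposited probe sets 17623 carried 1 gene symbol in the platform annotation, 516 several and 5696 none listed here. The probe set with the highest mean log2 value stood for each of 17325 genes, with no further filter on low values. The methods leave out probes called absent or marginal in more than a set number of replicates. Whether the deposited values had been filtered in this way is not stated in the sources used here. Log2 intensities were tested over all genes with limma 3.58.1 (R 4.3.3), following the methods, and a call needed a fold of 2 or more and an unadjusted p no higher than 0.05, with Benjamini-Hochberg adjusted p over all genes beside it. No single gene could be tested by exact permutation at 0.05, since 2 arrays against 3 allow a smallest one-sided exact p of 0.1. The number of arrays limits the precision. Values of all arrays are given for the called members and, in each class, for the member with the highest mean level and the member nearest 0. Members of other splicing lists are named where called. Members and lists were chosen with earlier results of these data known. The fit was tested on simulated data. Alternatives were other scalings of the arrays (of 12 listed housekeeping genes 9 were measured), array weights, a filter on dim genes, a fold of 2 in signal, a mean-variance trend, the unpaired test of the methods, the mean of all probe sets, a block and leaving out each array. Protein sequences and present or absent calls of the arrays were not analysed here. Promoters of RefSeq (GRCm38.p6) were matched by symbol, with the start nearest the 5′ end of the gene.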

Additional observations from a re-analysis of the deposited data

How the results depend on the processing

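The number of members lower (22 as reported) was 5 after a further quantile normalisation, 5 after cyclic loess, 5 with centring on housekeeping genes, 36 with centring on array medians, 15 at a fold of 2 in signal and 15 by the unpaired test of the methods, and 14 to 28 when 1 array was left out. The cause of these changes was not tested. The number higher (0) was 1 after the quantile normalisation, 4 with housekeeping centring and 0 to 2 when 1 array was left out. The median log2 fold change of the members (−1.25) was −0.54, −0.33 and −0.43 after quantile normalisation, cyclic loess and housekeeping centring, and −0.83 to −1.27 when 1 array was left out. Housekeeping centring shifted the median of all genes from 0.04 to 0.85 and turned the lower and higher calls over all genes from 2897 and 1671 into 636 and 7354. Centring on medians shifted it to −0.19 and gave 4176 and 1067, quantile normalisation gave 1484 and 1374, and cyclic loess 1447 and 1170. Members with a positive log2 fold change numbered 5 as reported, 13 after quantile normalisation, 16 after cyclic loess and 18 with housekeeping centring. Turns of single genes were followed only for the called members and, in each class, the member with the highest mean level and the member nearest 0. Among these, the direction of some that did not pass turned. After quantile normalisation these were Sf3a3 (0.072), Snrpe (0.094) and Hnrnpul1 (0.14). After cyclic loess they were Sf3a3 (0.33), Srsf12 (−0.013), Snrpg (0.32), Snrpe (0.65), Hnrnpu (0.36) and Hnrnpul1 (0.61). With housekeeping centring they were Sf3a3 (0.26), Sf3b6 (0.41), Snrpg (0.64), Snrpe (0.73), Hnrnpu (0.44) and Hnrnpul1 (0.59), and the median of the Sm and U snRNP class (0.64). With array weights Hnrnpul1 was at 0.0081. When 1 array was left out, Sf3a3 ran from −1.37 to 0.26, Snrpe from −0.32 to 0.16 and Hnrnpul1 from −0.46 to 0.14. With the replicate number as a replicate block 16 members fell and Hnrnpul1 was at 0.14. Same-numbered arrays of the groups correlated at 0.12 and −0.012 in their deviations, so the numbers were not taken to pair the samples. Array weights, a mean-variance trend, a filter on dim genes (51 members left) and the mean of all probe sets kept the number lower between 21 and 22. With 5 arrays and no detection calls used, how far dim members stood above background is not known.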
